A study of Mus musculus with 12 samples.

Results

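The genes described here are those of central nervous system myelin and of the mature oligodendrocyte that makes it. A list of 32 gene symbols was taken, and each gene was read from its brightest probe set by mean over all arrays, among those annotated with that symbol alone. With this rule 30 of the 32 were measured, out of 18193 genes with such a probe set. Trf and Enpp2 are not named by a single-symbol probe set in the table used and were not analysed here. The arrays came from male Swiss mice, an outbred stock, that entered a schedule of 16 weeks at the age of 6 weeks. They chose among water and ethanol solutions of 5% and 10% for 10 weeks, had no ethanol for 2 weeks and again had all bottles for 2 weeks. Quinine at 0.005 g/L was then added to both ethanol solutions for 2 weeks, and 1 more week of free choice followed per the labels. The steps before that week already fill the 16 weeks, so its place in the schedule is unclear. All 4 groups thus had access to ethanol and to quinine-adulterated ethanol, and no group without ethanol was analysed here. Inflexible drinkers preferred ethanol throughout, even when it was bitter, and light drinkers preferred water; their mean blood ethanol was 113 ± 11.3 and 48 ± 13.3 mg/dL per the labels, which do not state the kind of error. Prefrontal cortex and whole striatum were taken from mice aged 22 weeks at the end of the experiment, and each region of each class has 3 arrays, 12 in all.

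Oligodendrocytes wrap axons in stacked membrane that is rich in cholesterol and galactolipids and held together by a small set of abundant proteins. They arise from precursor cells under the control of the transcription factors Olig2, Sox10 and Nkx6-2, and Myrf then turns on the genes of the sheath. White matter tracts hold many of these cells: fibre bundles of the internal capsule cross the striatum, while the upper layers of the cortex hold little myelin.

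All levels are deposited probe set values on a log2 scale, and a difference of 1 on that scale is a doubling. Levels are given as mean ± SD over 3 arrays or as the 3 array values in the order of their replicate numbers, and differences as estimate ± SE from limma with p-values adjusted by the Benjamini-Hochberg method over 45037 probe sets. Each array had between 22.4% and 25.0% of its probe sets above log2 4, and 23 of the 30 genes had a mean above that value. The labels give 1 RNA pool concentration per group, so the 3 arrays of a group may share a pool. The p-values then measure only the spread between arrays. That concentration was highest for inflexible and lowest for light prefrontal cortex, whereas the striatal groups lay in between and close together. The drinking classes thus differed in pool concentration in prefrontal cortex and hardly in striatum. The part of this difference in the prefrontal results was not tested. The spiked hybridisation controls split the arrays into 5 with high and 7 with low values; the high ones are replicate 2 of both prefrontal groups, replicates 1 and 3 of inflexible striatum and replicate 1 of light striatum. Markers separated the 2 tissues in light drinkers, with all 16 medium spiny neuron genes higher and, of 12 cortical excitatory neuron genes, 5 lower in striatum and 1 higher (Neurod6, by 0.79 ± 0.09, adjusted p = 0.000756). The inflexible prefrontal arrays stood apart from the light ones in genes of other tissues: 6 of 16 medium spiny neuron genes rose, and the summed linear level of that list was 1029 to 1065 against 666 to 707 in light prefrontal cortex, 2072 to 2264 in light striatum and 2869 to 3117 in inflexible striatum. Ttr, made by the choroid plexus, rose from 4.53 ± 0.17 to 10.78 ± 0.43. It stood at 11.33 ± 0.27 in light and 11.04 ± 0.28 in inflexible striatum, so light prefrontal cortex was the group apart for Ttr. The part of these other tissues in the myelin results was not tested.

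The prefrontal comparison of inflexible with light drinkers called 9 of the 30 genes, all higher in inflexible drinkers, and 21 did not pass the test. The 9 that rose were Mobp, Mal, Ermn, Tspan2, Ugt8a, Plekhb1, Car2, Mog and Aspa, higher by 1.34-fold (Aspa) to 4.08-fold (Mobp), with adjusted p from 0.00107 to 0.0456. Over all 18193 genes 0.577% were called higher and 0.462% lower, and over the 6593 genes with a mean above log2 4 1.3% were called higher. The median difference of the 30 genes was 0.42, against 0.0018 for all genes, and 28 of the 30 differences were above 0. In 22 of the 30 the inflexible prefrontal arrays all lay above the light ones, compared with 7.46% of all genes and 9.98% of those above log2 4. Genes of the sheath membrane, of its cytoplasm and of its lipid and small-molecule enzymes were among the 9, whereas 0 of 5 transcription factors passed the test, Myrf alone of them having an unadjusted limma p under 0.05 (0.0149). In tissue homogenates more oligodendrocytes and more RNA per oligodendrocyte cannot be told apart.

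**Figure D1:**
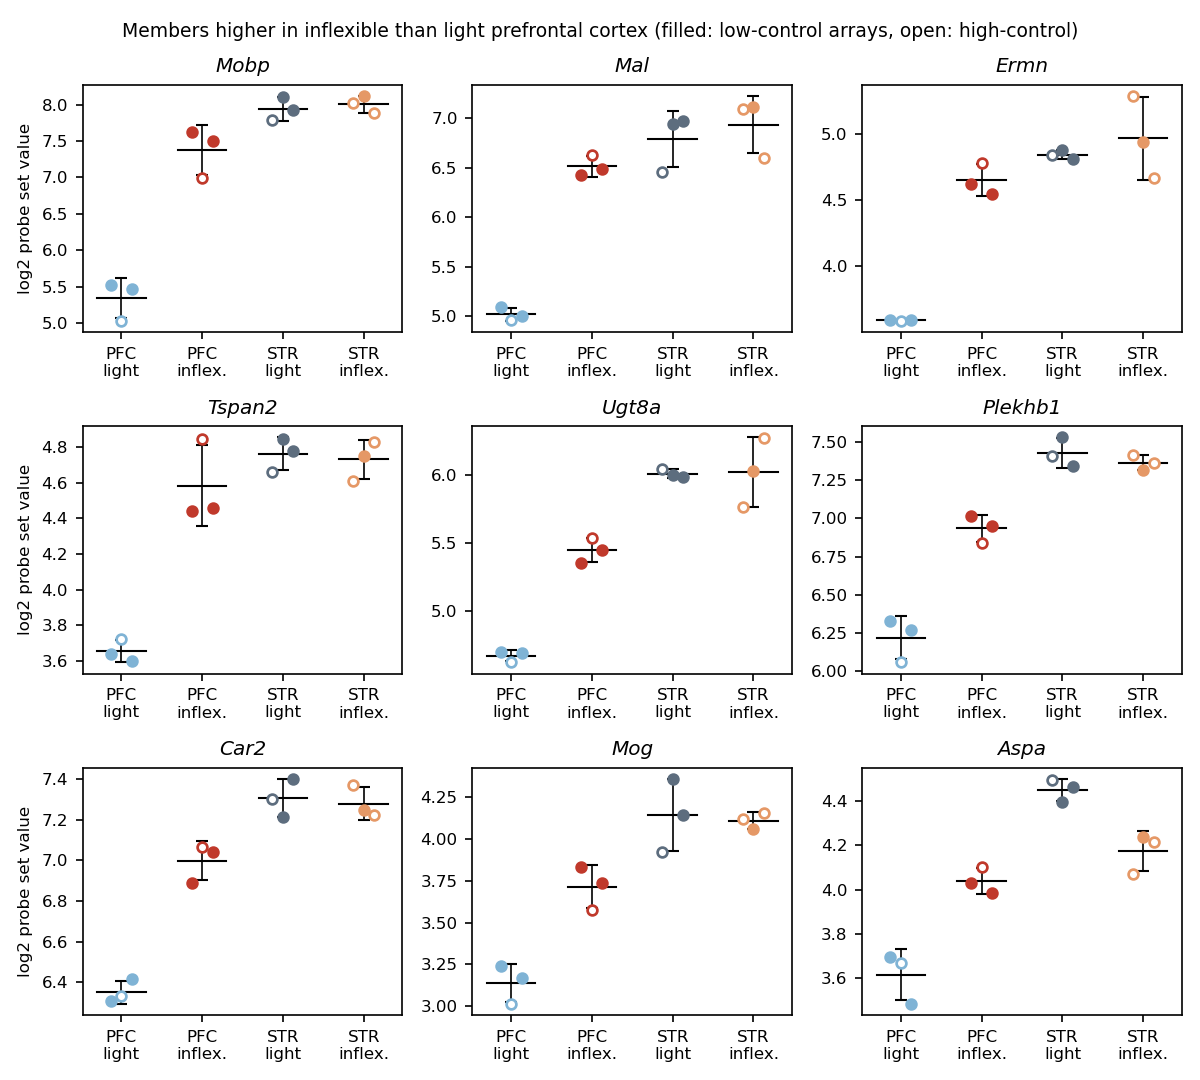
Log2 probe set value of the 9 genes called higher in inflexible prefrontal cortex, with 1 point per array in the 4 groups, the mean as a line and the SD as bars (n = 3); open points are the arrays with high spiked controls. The light prefrontal points lie below all others in each panel, and for Mobp they lie between 5.03 and 5.53 against 6.98 to 7.63 in inflexible prefrontal cortex.

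The promoters of 23 of the 30 genes were matched by symbol in RefSeq sequences on build GRCm38.p6, with 33 start sites. The 250 bases before each start were searched on both strands for ACAANG and for the sites CTGGCAC and CTGGTAC of Myrf. ACAANG, where N is any base, was used as a loose form of the core bound by SOX proteins and is called the SOX core below. The SOX core was found in 17 of the 33 windows, compared with 36.3% of 32851 windows of all genes, and a Myrf site in 4 of 33, compared with 5.93%. Start sites of a gene can lie close together, and 2 of these 4 windows are overlapping ones of Mag that share a site. By gene, 14 of 23 had a SOX core and 3 of 23 a Myrf site. A gene with several windows has more chances of a match, and no share by gene was counted over all genes. The counts by gene therefore cannot be set against the shares of windows. The 4 printed here span the range seen: Mobp, the gene with the largest prefrontal difference, has 6 SOX cores, Mog has 1 SOX core and 1 Myrf site, Mal has 0 of either although its difference was the next largest, and Olig2, whose level did not pass the test, has 1 SOX core. They read 5′ to 3′ on the strand of the gene, with the matches in capitals (both strands, so a match can be the reverse complement), and in these 4 windows no base belongs to both motifs.
Mobp, chr9:120149492-120149741, plus strand: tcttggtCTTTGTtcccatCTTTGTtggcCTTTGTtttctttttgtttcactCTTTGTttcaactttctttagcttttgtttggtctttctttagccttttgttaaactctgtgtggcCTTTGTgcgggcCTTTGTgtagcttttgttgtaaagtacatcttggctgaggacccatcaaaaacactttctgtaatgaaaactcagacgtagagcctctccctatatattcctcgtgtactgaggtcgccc
Mog, chr17:37023399-37023648, minus strand: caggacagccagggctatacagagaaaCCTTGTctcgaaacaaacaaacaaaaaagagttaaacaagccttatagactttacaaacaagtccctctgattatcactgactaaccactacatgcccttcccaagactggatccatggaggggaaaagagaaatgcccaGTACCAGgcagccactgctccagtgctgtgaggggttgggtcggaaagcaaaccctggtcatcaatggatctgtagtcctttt
Mal, chr2:127656696-127656945, minus strand: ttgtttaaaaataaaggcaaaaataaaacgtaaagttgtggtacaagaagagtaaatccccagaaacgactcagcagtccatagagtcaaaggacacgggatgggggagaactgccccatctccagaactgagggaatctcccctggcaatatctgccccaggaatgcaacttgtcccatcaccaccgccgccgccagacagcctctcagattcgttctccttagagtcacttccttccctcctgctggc
Olig2, chr16:91225300-91225549, plus strand: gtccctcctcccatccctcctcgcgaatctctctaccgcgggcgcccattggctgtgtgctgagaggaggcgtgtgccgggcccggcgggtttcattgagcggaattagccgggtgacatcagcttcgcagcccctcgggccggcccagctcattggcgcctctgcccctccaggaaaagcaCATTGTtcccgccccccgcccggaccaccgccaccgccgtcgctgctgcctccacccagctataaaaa
A match is a string of letters and not a measured site, and Mobp and Mal, with 6 and 0 SOX cores, both rose.

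Among the 11 genes of the sheath membrane, 4 rose in prefrontal cortex and the median difference was 0.57. Mobp encodes a basic protein that lies between the cytoplasmic faces of compact myelin. Mobp read 5.53, 5.03 and 5.47 on the light prefrontal arrays, 7.63, 6.98 and 7.50 on the inflexible prefrontal arrays, 7.79, 8.11 and 7.92 on the light striatal arrays and 8.01, 8.12 and 7.88 on the inflexible striatal arrays. The inflexible prefrontal arrays lay wholly between the light prefrontal and the striatal arrays. The class difference in prefrontal cortex was 2.03 ± 0.18, a 4.08-fold rise (adjusted p = 0.00107). Mal, a small proteolipid that sorts cargo to the sheath, rose by 1.50 ± 0.16 or 2.82-fold (adjusted p = 0.00252). The values of Mal were 5.09, 4.96 and 5.00 in light and 6.43, 6.63 and 6.48 in inflexible prefrontal cortex, against 6.46, 6.94 and 6.97 in light and 7.09, 7.12 and 6.60 in inflexible striatum. Light prefrontal cortex was again the group apart, and the inflexible prefrontal arrays overlapped the striatal ones. Tspan2, a tetraspanin of the sheath, gained 0.93 ± 0.10 or 1.91-fold (adjusted p = 0.00347). For Tspan2 the light and inflexible prefrontal arrays gave 3.64, 3.72 and 3.60 and then 4.44, 4.85 and 4.46, and the light and inflexible striatal arrays gave 4.66, 4.85 and 4.78 and then 4.61, 4.75 and 4.83. The inflexible prefrontal array with high controls reached the striatal level, and the other two stayed below it. Mog, the adhesion protein on the outermost face of the sheath, rose by 0.57 ± 0.11 or 1.49-fold (adjusted p = 0.0456). Mog read 3.24, 3.01 and 3.17 on the light prefrontal arrays, 3.83, 3.58 and 3.74 on the inflexible prefrontal arrays, 3.92, 4.36 and 4.15 on the light striatal arrays and 4.12, 4.06 and 4.15 on the inflexible striatal arrays. Its prefrontal groups did not overlap, but it lost its call when any of the 6 prefrontal arrays was left out, with adjusted p from 0.0635 to 0.177, and also without 4 of the striatal arrays, each of the inflexible ones and replicate 3 of the light ones (0.0687 to 0.0776).

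The other 7 genes of the sheath membrane did not pass the prefrontal test. Mbp, the protein that binds and zips together the inner membrane faces, differed by 1.09 ± 0.22 (adjusted p = 0.061). The values of Mbp were 9.46, 8.71 and 9.34 in light and 10.52, 9.95 and 10.30 in inflexible prefrontal cortex, against 10.57, 11.07 and 10.82 in light and 10.66, 10.88 and 10.57 in inflexible striatum. The 3 inflexible arrays lay above the 3 light ones, and in both classes replicate 2, the array with high controls, was the lowest. Same-numbered prefrontal arrays had correlated deviations, although only 4 of 6 arrays correlated best with their own number in the other class. With that number taken as a block within prefrontal cortex, the Mbp difference passed (adjusted p = 0.0126), as did that of Opalin (0.0282). That block was chosen after seeing the data, and the pairing behind it is assumed. Cldn11, which forms the tight junctions between the turns of the sheath, differed by 1.02 ± 0.20 (adjusted p = 0.0527). For Cldn11 the light and inflexible prefrontal arrays gave 4.14, 4.33 and 4.21 and then 5.09, 5.57 and 5.08, and the light and inflexible striatal arrays gave 5.92, 5.84 and 5.27 and then 5.40, 5.48 and 5.86. No light array reached the lowest inflexible one, which stood at 5.08. Opalin, a glycoprotein of oligodendrocyte membranes, differed by 0.47 ± 0.14 (adjusted p = 0.251). Opalin read 3.51, 3.15 and 3.49 on the light prefrontal arrays, 4.07, 3.57 and 3.92 on the inflexible prefrontal arrays, 4.50, 4.57 and 4.70 on the light striatal arrays and 4.20, 4.28 and 4.05 on the inflexible striatal arrays. Its lowest inflexible prefrontal array, 3.57, was only just above its highest light one, 3.51. Mag, the sialic acid-binding adhesion molecule that faces the axon, differed by 0.39 ± 0.12 (adjusted p = 0.337). The values of Mag were 3.78, 4.13 and 3.89 in light and 4.42, 4.33 and 4.20 in inflexible prefrontal cortex, against 5.17, 5.31 and 4.92 in light and 5.09, 4.79 and 4.89 in inflexible striatum. The prefrontal groups were separate here too, by 4.20 against 4.13. Pllp, a proteolipid, and the gap junction genes Gjb1 and Gjc3 had differences of 0.19 ± 0.14, 0.13 ± 0.11 and 0.04 ± 0.03, and both gap junction genes had means below log2 4 in all 4 groups.

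Of 6 genes for proteins of the oligodendrocyte cytoplasm and cytoskeleton, Ermn and Plekhb1 rose, and the median difference was 0.55. Ermn encodes ermin, which binds actin in the late phase of myelination. For Ermn the light and inflexible prefrontal arrays gave 3.59, 3.59 and 3.59 and then 4.62, 4.78 and 4.54, and the light and inflexible striatal arrays gave 4.84, 4.87 and 4.80 and then 5.29, 4.94 and 4.67. All light prefrontal arrays stood at 3.59, and the inflexible ones were higher by 1.06 ± 0.13 or 2.08-fold (adjusted p = 0.00465). Plekhb1, a pleckstrin homology domain protein, rose by 0.72 ± 0.08 or 1.64-fold (adjusted p = 0.00251). Plekhb1 read 6.33, 6.06 and 6.27 on the light prefrontal arrays, 7.02, 6.84 and 6.95 on the inflexible prefrontal arrays, 7.41, 7.53 and 7.34 on the light striatal arrays and 7.41, 7.31 and 7.37 on the inflexible striatal arrays. Each of its 3 inflexible prefrontal values fell in the gap between light prefrontal cortex and striatum. Cnp, the enzyme that keeps cytoplasm-filled channels open in the sheath, differed by 0.99 ± 0.25 (adjusted p = 0.154). The values of Cnp were 6.63, 5.94 and 6.63 in light and 7.61, 7.07 and 7.51 in inflexible prefrontal cortex, against 7.81, 8.30 and 8.11 in light and 8.13, 8.25 and 7.56 in inflexible striatum. As for Mbp, the high-control array was the lowest of its group in both classes. Cryab, a small heat shock protein, differed by 0.38 ± 0.07 (adjusted p = 0.0543). For Cryab the light and inflexible prefrontal arrays gave 5.52, 5.38 and 5.35 and then 5.74, 5.77 and 5.87, and the light and inflexible striatal arrays gave 6.22, 6.05 and 5.95 and then 6.09, 6.18 and 6.24. Its 4 groups stepped up from light to inflexible prefrontal cortex and then to striatum. Ppp1r14a, an inhibitor of myosin phosphatase, differed by 0.36 ± 0.14 (adjusted p = 0.55). Ppp1r14a read 3.05, 3.05 and 3.06 on the light prefrontal arrays, 3.54, 3.45 and 3.26 on the inflexible prefrontal arrays, 4.10, 4.09 and 3.57 on the light striatal arrays and 3.86, 3.57 and 3.86 on the inflexible striatal arrays. The light prefrontal arrays spanned only 3.05 to 3.06, and the prefrontal groups did not overlap. Gsn, which severs actin filaments, differed by 0.11 ± 0.15.

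Among 6 enzymes, Ugt8a, Car2 and Aspa rose, and the median difference was 0.45. Ugt8a makes galactocerebroside, the typical lipid of myelin. The values of Ugt8a were 4.70, 4.63 and 4.69 in light and 5.36, 5.54 and 5.45 in inflexible prefrontal cortex, against 6.05, 6.00 and 5.98 in light and 5.76, 6.03 and 6.28 in inflexible striatum. The prefrontal rise of 0.78 ± 0.10 or 1.71-fold (adjusted p = 0.0091) left all inflexible arrays below the striatal ones. Car2, the carbonic anhydrase of oligodendrocytes, rose by 0.65 ± 0.06 or 1.57-fold (adjusted p = 0.00196). For Car2 the light and inflexible prefrontal arrays gave 6.31, 6.33 and 6.41 and then 6.89, 7.07 and 7.04, and the light and inflexible striatal arrays gave 7.30, 7.21 and 7.40 and then 7.37, 7.25 and 7.22. Again the inflexible prefrontal values sat between those of the light prefrontal and the striatal arrays. Aspa, which splits N-acetylaspartate and so frees acetate for lipid synthesis, rose by 0.42 ± 0.06 or 1.34-fold (adjusted p = 0.0187). Aspa read 3.70, 3.67 and 3.49 on the light prefrontal arrays, 4.03, 4.10 and 3.98 on the inflexible prefrontal arrays, 4.49, 4.40 and 4.46 on the light striatal arrays and 4.07, 4.24 and 4.21 on the inflexible striatal arrays. Its call was lost when any inflexible prefrontal array was left out (adjusted p from 0.0544 to 0.0744). Qdpr, which recycles a pterin cofactor, differed by 0.46 ± 0.16 (adjusted p = 0.445). The values of Qdpr were 7.52, 7.98 and 7.59 in light and 8.08, 8.30 and 8.10 in inflexible prefrontal cortex, against 8.81, 8.33 and 8.41 in light and 8.33, 8.17 and 8.61 in inflexible striatum. Only a small gap, 8.08 against 7.98, parted its prefrontal groups. Fa2h, which hydroxylates the fatty acids of galactolipids, differed by 0.43 ± 0.21 with separate prefrontal groups, and the protease gene Klk6 by 0.03 ± 0.03 at means near log2 3.

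The 5 transcription factors had a median prefrontal difference of 0.06. Their intervals reflect the spread between arrays, which may share a pool, and so do not bound the difference between animals. For Olig2, which specifies the lineage, the difference was -0.06 with a 95% interval from -0.25 to 0.13, and for its relative Olig1 it was 0.06 with an interval from -0.13 to 0.25. Sox10, needed for terminal differentiation, differed by 0.13 (-0.20 to 0.46), and Nkx6-2 by 0.04 (-0.02 to 0.10) at means near log2 3. Values this low are compressed on the arrays, so differences are understated. Olig2, with a mean of 3.57 over all arrays, and Sox10, with 3.85 in light and 3.98 in inflexible prefrontal cortex, also lay below log2 4. Myrf, the activator of sheath genes, differed by 0.24 ± 0.08 (adjusted p = 0.393). For Myrf the light and inflexible prefrontal arrays gave 3.88, 4.11 and 4.20 and then 4.33, 4.35 and 4.22, and the light and inflexible striatal arrays gave 4.48, 4.53 and 4.37 and then 4.55, 4.40 and 4.56. The inflexible prefrontal arrays started at 4.22, just above the highest light one at 4.20. Whether the transcription factors differed from the sheath genes in their response was not tested.

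The last 2 genes encode a lipid carrier and a receptor. Apod, a secreted lipocalin that cells other than oligodendrocytes also make, differed by -0.20 ± 0.29, and its arrays with high controls were the low ones in both prefrontal groups. Gpr37, a receptor of mature oligodendrocytes, differed by 0.83 ± 0.21 (adjusted p = 0.16). Gpr37 read 4.27, 3.64 and 4.26 on the light prefrontal arrays, 4.98, 4.60 and 5.07 on the inflexible prefrontal arrays, 5.07, 5.42 and 5.55 on the light striatal arrays and 5.07, 5.33 and 4.87 on the inflexible striatal arrays. The prefrontal groups did not overlap, and the high-control arrays, 3.64 and 4.60, were the lowest of their classes.

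The high-control array of each prefrontal class lay on the same side of the mean of the other two arrays in 22 of the 30 genes, below that mean in 11 and above it in 11. Within the low-control arrays, 2 per prefrontal class, and with the spread pooled over all arrays, 8 of the 30 genes were called, and 330 of all 18193. Mbp (1.01, adjusted p = 0.0208) and Gpr37 (adjusted p = 0.0177) were among the 8, and Ermn, Ugt8a and Aspa were not (0.0846 to 0.118). The high-control arrays give 1 array per prefrontal class and so only values: Mobp differed by 1.95 there against 2.07 within the low-control arrays, Mal by 1.67 against 1.41 and Mbp by 1.25 against 1.01. With the control level as a block over all 12 arrays, 16 of the 30 genes were called, all higher, while the count over all genes went from 189 to 580.

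**Figure D2:**
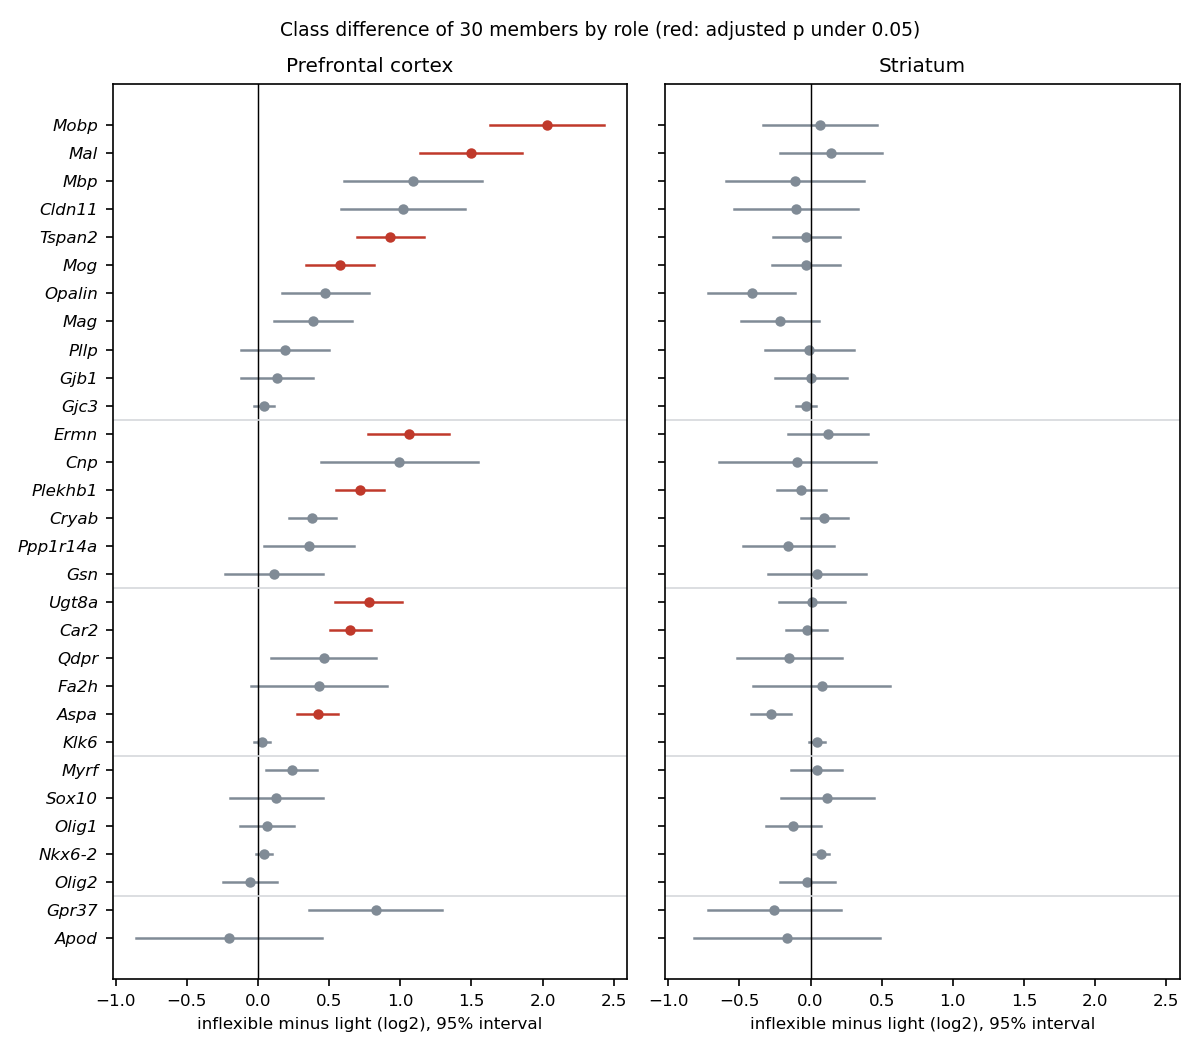
Inflexible minus light drinkers on the log2 scale for the 30 genes in prefrontal cortex (left) and striatum (right), with 95% intervals; lines part the sheath membrane, cytoplasm, enzyme, transcription factor and carrier or receptor genes, and red marks an adjusted p under 0.05. Differences reach 2.03 in prefrontal cortex and lie between -0.41 and 0.15 in striatum.

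Several genes have more than 1 probe set, which gives a second reading of the same RNA. The 30 genes have 62 probe sets in all, of which 17 were called in prefrontal cortex, each of them higher, against 0.402% of all probe sets called higher. Among the probe sets not used above, 17 had a mean above log2 4, and 16 of these had a difference of the same sign as the one that stands for the gene. Mbp has 8 probe sets: 3 of those not used above were called, at 1.39 ± 0.14 (adjusted p = 0.00189), 1.47 ± 0.21 (0.0135) and 1.39 ± 0.22 (0.0218). These 3 carry the suffix x, which marks sets with probes that can also match other transcripts, as do the sets that stand for Cnp, Qdpr and Gsn. A further Mbp set with a mean of 4.75 was the exception in sign, at -0.12 ± 0.09. Of the 5 Mobp sets, those at means of 5.31 and 4.27 rose by 1.57 ± 0.17 (adjusted p = 0.00246) and 0.59 ± 0.06 (0.0027), and 2 dimmer sets did not pass. The second sets of Mal and Tspan2 rose by 1.18 ± 0.21 (adjusted p = 0.0346) and 0.94 ± 0.10 (0.00229), and the third set of Cnp, at a mean of 4.10, rose by 0.47 ± 0.08 (0.0329). The second Ermn set differed by 0.50 ± 0.10 (adjusted p = 0.053).

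**Figure D3:**
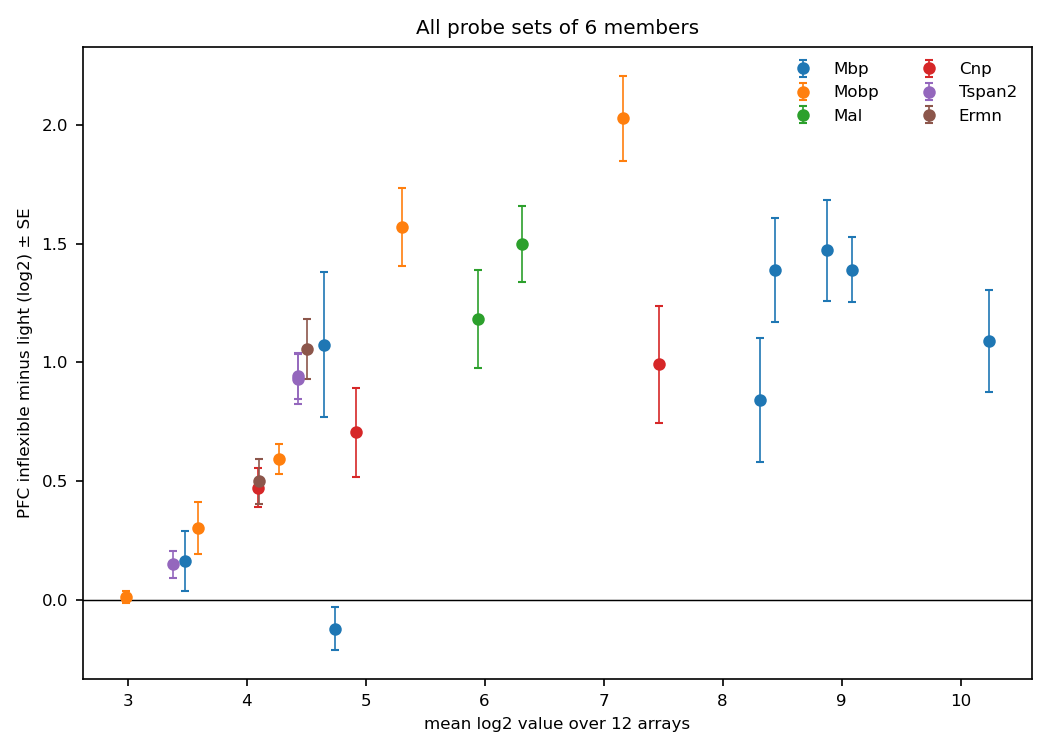
Prefrontal difference (inflexible minus light, log2 ± SE) of every probe set of Mbp, Mobp, Mal, Cnp, Tspan2 and Ermn against its mean log2 value over 12 arrays. The 2 Mobp sets below log2 4 lie at 0.30 and 0.01, whereas the brightest Mobp set lies at 2.03; 1 Mbp set lies below 0.

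In striatum 0 of the 30 genes were called by limma, where 0.022% of all genes were, and 3 had an unadjusted p under 0.05. The median difference was -0.03, with 12 of 30 above 0. For Mobp the 95% interval of the striatal difference ran from -0.34 to 0.47. It ran from -0.21 to 0.50 for Mal and from -0.17 to 0.12 for Car2. The prefrontal estimate of each of these genes lay outside its striatal interval, a comparison that leaves out the spread of the prefrontal estimate. The direct limma test of the difference between regions did not call Mal (adjusted p = 0.0504). These intervals reflect the spread between arrays, which may share a pool. Aspa was lower in inflexible striatum by 0.28 on average (SE 0.06, adjusted p = 0.543), its highest inflexible array, 4.24, being below its lowest light one, 4.40. Opalin was the other gene with all inflexible arrays below the light ones, with a difference of -0.41 ± 0.14 (adjusted p = 1). Groups without overlap in this direction made up 2.97% of all genes. Nkx6-2, at means near log2 3, was the only gene with all inflexible arrays above the light ones (4.56% of all genes), with a difference of 0.07 ± 0.03.

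The test of the difference between the 2 class effects, striatal minus prefrontal, called 5 of the 30 genes, all lower, against 0.275% of all genes called lower. Mobp had -1.96 ± 0.25 (adjusted p = 0.0144), Tspan2 -0.96 ± 0.15 (0.0354), Plekhb1 -0.78 ± 0.11 (0.02), Aspa -0.70 ± 0.09 (0.0146) and Car2 -0.67 ± 0.09 (0.0183). Mal followed with -1.35 ± 0.23 (adjusted p = 0.0504). Over the 30 genes the median was -0.60, and 26 of the 30 values were below 0. These calls were easily lost: without replicate 3 of inflexible prefrontal cortex only 1 of the 30 genes was called, without replicate 3 of inflexible striatum 2, and 3 without replicate 1 or 3 of light prefrontal cortex, replicate 2 of inflexible striatum or replicate 2 of light striatum. With the replicate number as a block over all arrays, Tspan2 alone was called. 

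Between the regions of light drinkers, 19 of the 30 genes were higher in striatum and 0 were lower, against 2.18% of all genes called higher and 2.5% lower. The differences ran from 1.32-fold for Myrf to 6.05-fold for Mobp, and the median difference was 0.85. By role, 8 of 11 sheath membrane genes, 5 of 6 cytoplasmic genes, 4 of 6 enzymes and 1 of 5 transcription factors, Myrf, were called, and Gpr37 was the last. Mobp differed by 2.60 ± 0.18, Mal by 1.78 ± 0.16, Cnp by 1.67 ± 0.25 and Mbp by 1.65 ± 0.22. In 26 of 30 genes the 3 light striatal arrays lay above the 3 light prefrontal ones (9.36% of all genes), the exceptions being Gjc3, Gsn, Olig2 and Apod. The weakest calls were those of Myrf (adjusted p = 0.0262), lost without replicate 1 or 2 of either light group (0.053 to 0.108), and Qdpr (adjusted p = 0.0254), lost without replicate 1 or 3 of either (0.0578 to 0.109).

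In inflexible drinkers the regions differed in fewer of these genes, with 2 of 30 called higher in striatum, against 0.561% of all genes. These were Plekhb1 at 0.43 ± 0.08 (adjusted p = 0.0384) and Ugt8a at 0.57 ± 0.10 (0.0429), and the median over the 30 genes was 0.32. The Plekhb1 call was lost when any of 9 arrays was left out and that of Ugt8a when any of 11 was, and each of the 12 fits without 1 array called 0 or 1 of the 30 genes. The change of the regional difference between the drinking classes is the same contrast as the one that called 5 genes above. Light prefrontal cortex had the lowest group mean in 28 of the 30 genes, and in 27 inflexible prefrontal cortex came next. In 11 genes, Mbp, Mobp, Mog, Mag, Plekhb1, Ppp1r14a, Cryab, Ugt8a, Car2, Myrf and Sox10, every inflexible prefrontal array fell between the light prefrontal arrays and all striatal arrays, an order held by 0.66% of all genes and 1.21% of those above log2 4.

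**Figure D4:**
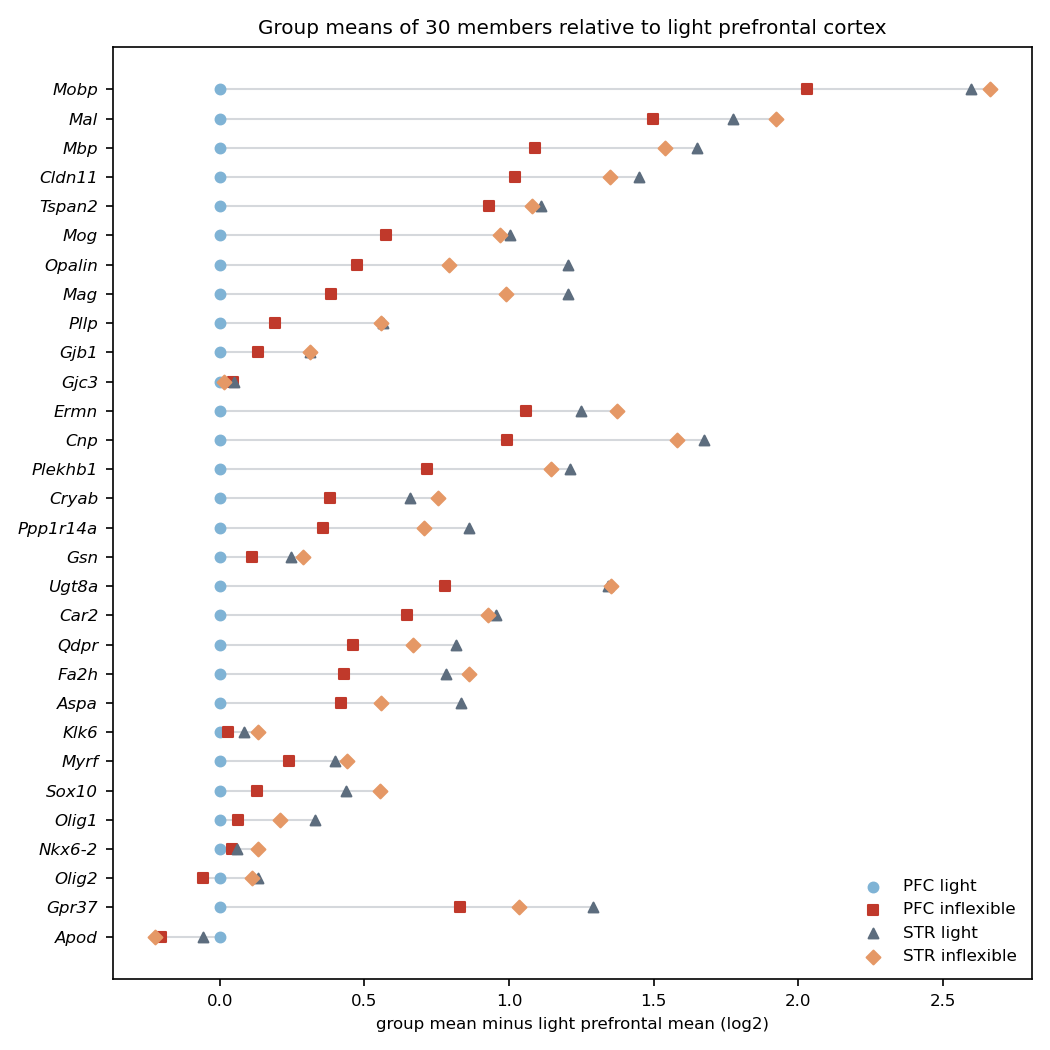
Mean log2 value of each of the 30 genes in the 4 groups, drawn as the distance from its light prefrontal mean. Inflexible prefrontal cortex (squares) lies to the right of 0 in 28 genes, and in 27 it lies between light prefrontal cortex and the 2 striatal groups (triangles and diamonds).

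Other genes of the lineage were read from further lists. Of 34 other mature oligodendrocyte genes 6 rose in prefrontal cortex and 0 fell, with a median difference of 0.19. Bcas1, a marker of oligodendrocytes that are starting to myelinate, rose by 1.15 ± 0.19 (adjusted p = 0.027), the cytoskeletal gene Anln by 0.70 ± 0.11 (0.0272), Tmem88b by 0.64 ± 0.11 (0.034) and Ndrg1 by 0.58 ± 0.08 (0.00789). Among 18 genes of myelin lipid synthesis 0 passed in either direction, the smallest p being that of the desaturase gene Degs1 at 0.36 ± 0.08 (adjusted p = 0.126). Of 17 oligodendrocyte precursor genes, 6 of which had a mean above log2 4, 0 passed, with a median of -0.02. Sox4 differed by -0.61 ± 0.14 (adjusted p = 0.107) and Pcdh15 by -0.32 ± 0.09 (0.263). Over all genes 1.04% were called in either direction here, so 0 calls in a list of this size do not set it apart from other genes. Of 16 genes for signals between axon and oligodendrocyte 0 passed, and Igf1r, the receptor for insulin-like growth factor, differed by -0.33 ± 0.08 (adjusted p = 0.157). Among 6 markers of Schwann cells, which make peripheral myelin, Egr2 fell by 0.88 on the log2 scale (SE 0.10, adjusted p = 0.00422); neurons also express this immediate early gene.

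Summed over the 30 genes on the linear scale, the level was 1377 to 1700 in light prefrontal cortex, 2492 to 3045 in inflexible prefrontal cortex, 3544 to 4267 in light striatum and 3457 to 3892 in inflexible striatum. The prefrontal groups did not overlap each other or striatum. A linear sum weighs the brightest genes most, here above all Mbp (mean 10.24 over all arrays), which did not pass the prefrontal test. The precursor list gave 375 to 418 in light and 350 to 380 in inflexible prefrontal cortex, and the astrocyte list 1906 to 2299 and 2020 to 2375. Of the other cell types, 0 of 13 astrocyte and 0 of 11 endothelial and mural genes were called in prefrontal cortex, where 1.04% of all genes were. Lower levels were called for 2 of 13 microglial genes (Olfml3 and Ctss) and 1 of 10 meningeal genes (Fmod). Of 12 cortical excitatory neuron genes 1 rose, Neurod6, by 0.50 ± 0.09 (adjusted p = 0.0344), and 5 of the 12 differences were above 0. Cux2 differed by -0.95 ± 0.19 (adjusted p = 0.0578), Rasgrf2 by -0.57 ± 0.13 (0.0963) and Rorb by -0.62 ± 0.18 (0.276). The sum of the cortical list was 787 to 941 in light and 643 to 818 in inflexible prefrontal cortex, against 437 to 601 over the striatal arrays. The choroid plexus and ependyma list, of which Ttr alone of 12 genes was called, summed to 109 to 110 in light and 1339 to 2203 in inflexible prefrontal cortex. Its sum was 2195 to 2980 in light and 1957 to 2761 in inflexible striatum. Only 1 of these 12 genes had a mean above log2 4, and 11 of the 12 prefrontal differences were above 0. Clic6 differed by 0.49 ± 0.14 (adjusted p = 0.224), Kl by 0.41 ± 0.09 (0.115) and Otx2 by 0.20 ± 0.04 (0.0819). On the inflexible prefrontal arrays the sums of the medium spiny neuron genes and of the myelin genes both lay between the tissues. The medium spiny sum stayed nearer to light prefrontal cortex. It was also higher in inflexible (2869 to 3117) than in light striatum (2072 to 2264), whereas the myelin sums of the striatal groups overlapped. The share of either pattern that tissue boundaries, cell number or expression per cell accounts for was not tested.

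**Figure D5:**
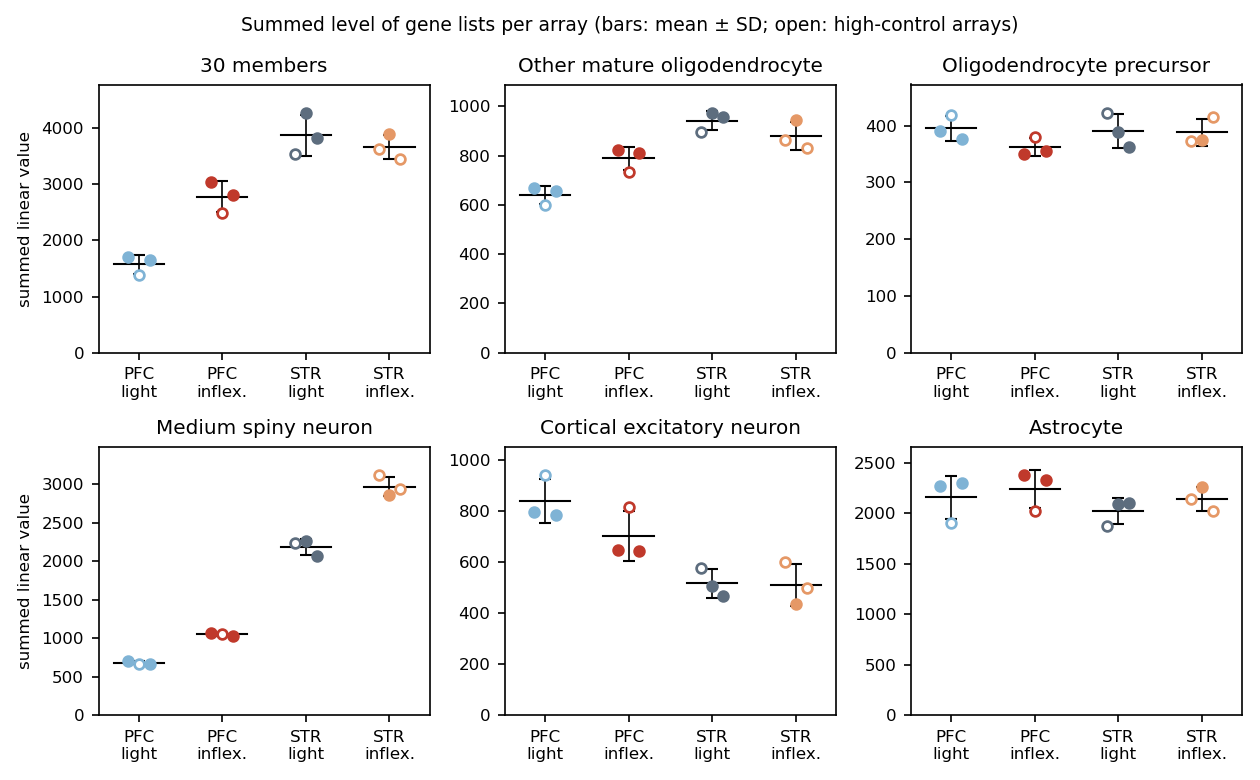
Summed linear probe set value of 6 gene lists on each array by group, with mean and SD bars (n = 3) and open points for arrays with high spiked controls. The 30 genes run from 1377 to 4267 and the medium spiny neuron list from 666 to 3117, both with inflexible prefrontal cortex between light prefrontal cortex and striatum, while the precursor list stays between 350 and 422. Of the 17 precursor genes, 6 have a mean above log2 4. Mbp, the brightest of the 30 genes, weighs most in their sum.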

How the data were processed

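The authors deposited 1 table of probe set values on a log2 scale for 12 arrays; the base is read from the values and not stated. RMA and the affy package are named, without versions, per the submitters' processing notes. RMA compresses low values, so fold changes of dim genes are understated. Of 45101 probe sets, 64 controls were left out; 34945 of the other 45037 carried 1 gene symbol, 932 several and 9160 none, per the platform annotation. The model, from limma 3.58.1 (R 4.3.3; lmFit and eBayes), had a mean for each of 4 groups, which leaves 8 residual degrees of freedom. Tests were two-sided, with Benjamini-Hochberg adjustment over 45037 probe sets and calls at adjusted p under 0.05. The script was tested on simulated data. The members and lists were chosen with earlier results of these data known. Genes were named as follows: all members, with array values for those called in any contrast or among the 6 with the highest mean, and up to 4 genes per other list by smallest prefrontal p. Same-numbered prefrontal arrays had correlated deviations (0.741, 0.849 and 0.622 over 10852 probe sets). Their numbers were therefore taken as pairs in an added setting with a block within prefrontal cortex. The main model has no such block. In the other pairs of groups the deviations were not positively correlated at every number. Of 6 prefrontal arrays, 4 correlated best with their own number in the other class. Number 2 is the high-control array of both prefrontal groups, and the part of the control level in these correlations was not tested. Tables and figures used Python 3.11.15, pandas 2.3.3, numpy 2.4.6 and matplotlib 3.10.9. The number of arrays limits the precision.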

Additional observations from a re-analysis of the deposited data

Results flagged for a closer look

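For 5 genes the class effect differed between the regions by the test of the difference itself, striatal minus prefrontal: Mobp (-1.96), Tspan2 (-0.96), Plekhb1 (-0.78), Aspa (-0.70) and Car2 (-0.67), with limma adjusted p from 0.0144 to 0.0354. The prefrontal differences of these genes were 0.42 to 2.03 and the striatal ones -0.28 to 0.07.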

How the results depend on the processing

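No called value changed direction in any setting; values not called changed sign in 6 of 561 cases (gene by setting) in prefrontal cortex and in 86 of 773 in striatum. In prefrontal cortex 9 of 30 genes were called, 7 to 10 when 1 array was left out (median difference 0.38 to 0.45), 16 with the hybridisation control level as a block, 17 with array weights, 5 with only the 2 groups compared (580, 1504 and 106 of all 18193 genes, against 189 in the main analysis) and 0 from the high-control arrays alone, where 1 residual degree of freedom is left. With the replicate number as a block over all arrays 7 were called, and within prefrontal cortex 11. In striatum every setting gave 0 (median -0.06 to 0.0005 with 1 array left out). The difference between regions gave 5 calls, 1 to 5 with 1 array left out (median -0.65 to -0.51), 1 with the replicate block, 11 with the control block and 13 with array weights (242 and 428 of all genes, against 80), 1 at a minimum fold of 1.2, 1 within the low-control and 3 within the high-control arrays with pooled spread, and 0 from the high-control arrays alone; averaging all probe sets of a gene moved its median to -0.48. Light drinkers' striatum against prefrontal cortex gave 19 calls, 17 to 20 with 1 array left out (median 0.79 to 0.95), 0 from the high-control arrays alone, and a median of 1.11 with a filter on means above log2 4. The same comparison in inflexible drinkers gave 2 calls, 0 to 1 with 1 array left out (median 0.25 to 0.32), 0 with the replicate block, with the eBayes trend, at the minimum fold, with only the 2 groups compared, within the low-control arrays with pooled spread and from the high-control arrays alone, 9 with the control block and 5 within the high-control arrays with pooled spread (583 and 1415 of all genes, against 219). The filter left out 7 genes (Mog, Gjc3, Gjb1, Ppp1r14a, Klk6, Olig2 and Nkx6-2), which have no value there, so its median is over 23. Within a control level some groups hold 1 array (both prefrontal groups and light striatum among the high, inflexible striatum among the low), which is assumed to vary like the others. The blocks within prefrontal cortex and the fits within control levels with pooled spread were chosen after seeing the data.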
